A study of Bos taurus with 8 samples.

Results

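CCL3, CCL4 and CCL5 are 3 chemokines of the CC family, and this account follows their transcripts in blood mononuclear cells of Holstein cattle that were or were not exposed to lipopolysaccharide (LPS). The members were taken by gene name, and each had 1 row among the 21861 gene rows of every single-cell RNA table (ENSBTAG00000025250 for CCL3, ENSBTAG00000025257 for CCL4 and ENSBTAG00000053649 for CCL5). CCL3 (macrophage inflammatory protein 1 alpha), CCL4 (macrophage inflammatory protein 1 beta) and CCL5 (RANTES) are small secreted proteins that draw in monocytes, T cells and NK cells. CCL3 and CCL5 act through the receptor CCR1, among others. Myeloid cells transcribe CCL3 and CCL4 soon after a Toll-like receptor such as the LPS receptor is engaged, through NF-kappa B, whereas NK cells and memory CD8 T cells hold CCL5 transcripts without a new stimulus and store the protein in granules.

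Blood of 4 female Holstein cows aged 2 years, in lactation, was pooled and divided into a part without LPS and parts kept with LPS at 2 μg/ml for 2 h, 4 h or 8 h, after which mononuclear cells were isolated. Each treatment gave 1 library of 3' single-cell RNA counts and 1 library of single-cell chromatin accessibility counts (scATAC-seq). All values therefore come from 1 library per treatment, no test between treatments was possible, and each interval below is an exact 95% interval for counting error alone. Because the 4 animals were pooled, the spread between animals cannot be seen, and how long the blood without LPS was kept was not given in the sources used here, so the time of culture and LPS cannot be told apart.

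After removal of cells with under 200 or over 3000 genes, under 200 unique molecular identifiers (UMIs, each standing for 1 captured RNA molecule) or at least 20% mitochondrial UMIs, the libraries held 7821, 9865, 7387 and 3411 cells (no LPS, 2 h, 4 h and 8 h), with median UMIs per cell between 3997 and 4757. From 0.542% to 0.803% of the barcodes of a library also occurred in another library. Cells were put in classes by single genes. NCR1-positive cells carried the NK receptor NCR1 (63, 99, 90 and 38 cells), cytotoxic CD3E-positive cells carried the T cell receptor component CD3E with at least 2 cytotoxic granule genes (224, 204, 201 and 64 cells), CD14-positive cells carried at least 2 UMIs of the LPS co-receptor CD14 (707, 308, 117 and 66 cells), and MS4A1-positive cells carried the B cell antigen CD20 (1764, 2436, 1926 and 729 cells). Of their lists of markers, 7 of 8 NK genes, 7 of 8 T cell genes, 8 of 8 monocyte genes and 8 of 8 B cell genes had a UMI in at least 10% of the cells of the respective class. Each of these lists includes the gate gene (NCR1, CD3E, CD14 or MS4A1), which all cells of the class carry by definition. CD14-positive cells also had 3 of 5 neutrophil genes in at least 10% of cells. Their share of all cells was 9.04% without LPS and 3.12%, 1.58% and 1.93% with 2 h, 4 h and 8 h of LPS.

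Among the 4 named classes, CD14-positive cells held the highest level of CCL3 and CCL4 in each of the 4 libraries, and both were more than 2-fold higher at 2 h and 4 h of LPS than without LPS. NCR1-positive cells held the highest level of CCL5 of the 4 classes, which stayed within 2-fold of its level without LPS at each time, except when at least 2 NCR1 UMIs were asked for. Levels are given as UMIs of the gene per 1000000 UMIs of the class (CPM).

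CCL3 stood at 4711 CPM in CD14-positive cells of the library without LPS, and at 16421, 13942 and 7270 CPM with 2 h, 4 h and 8 h of LPS. The order was thus 2 h, 4 h, 8 h and no LPS, and no neighbours in this order had overlapping counting intervals. On the log2 scale (with 1 CPM added to both levels) the difference from no LPS was 1.80 after 2 h (1.78 to 1.82 by counting error), 1.57 after 4 h (1.54 to 1.59) and 0.63 after 8 h (0.58 to 0.67). From 4 h to 8 h the level fell by 0.94 on the log2 scale (0.89 to 0.99).

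CCL4 in the same cells stood at 3565 CPM without LPS and at 13843, 8507 and 6773 CPM with 2 h, 4 h and 8 h of LPS. Its log2 difference from no LPS was 1.96 after 2 h (1.94 to 1.98), 1.25 after 4 h (1.22 to 1.29) and 0.93 after 8 h (0.88 to 0.97). The 8 h value leaned on 1 of the 66 cells, which held 22.4% of the CCL4 UMIs of the class, and the difference was 0.64 when the cell with the most CCL4 UMIs in each library was left out. Between 2 h and 4 h CCL4 fell by 0.70 on the log2 scale and CCL3 by 0.24, so that CCL3 UMIs per CCL4 UMI went from 1.19 (1.17 to 1.2) to 1.64 (1.60 to 1.68).

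CCL5 in CD14-positive cells stood at 1629 CPM without LPS and at 3125, 2448 and 1523 CPM with 2 h, 4 h and 8 h of LPS. Its log2 difference from no LPS was 0.94 after 2 h (0.90 to 0.98), 0.59 after 4 h (0.53 to 0.65) and -0.10 after 8 h (-0.19 to -0.0024), so it did not pass 2-fold at any time, although with edgeR scaling factors it was 1.47 at 2 h. In this class 2 of the 3 chemokines were past 2-fold at 2 h, where 25.5% of the 7769 genes with at least 20 UMIs in the pair of libraries were, and most of those (1653 of 1979) were lower with LPS. At 4 h the same count of 2 stood beside 18.6% of all genes, and at 8 h none of the 3 was past 2-fold beside 13.8% of all genes. Since the median gene of CD14-positive cells lay at -0.56, -0.20 and -0.05 on this scale in the order of time, CCL3 and CCL4 stood further above the median gene than above 0. Of all genes 4.20% were at least 2-fold higher at 2 h and 5.59% at 4 h. With edgeR factors, which raise all values of CD14-positive cells by 0.53 at 2 h and 0.19 at 4 h, the genes past 2-fold were 639 higher and 626 lower at 2 h and 574 higher and 699 lower at 4 h, instead of 326 and 1653 and of 422 and 980.

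**Figure D1:**
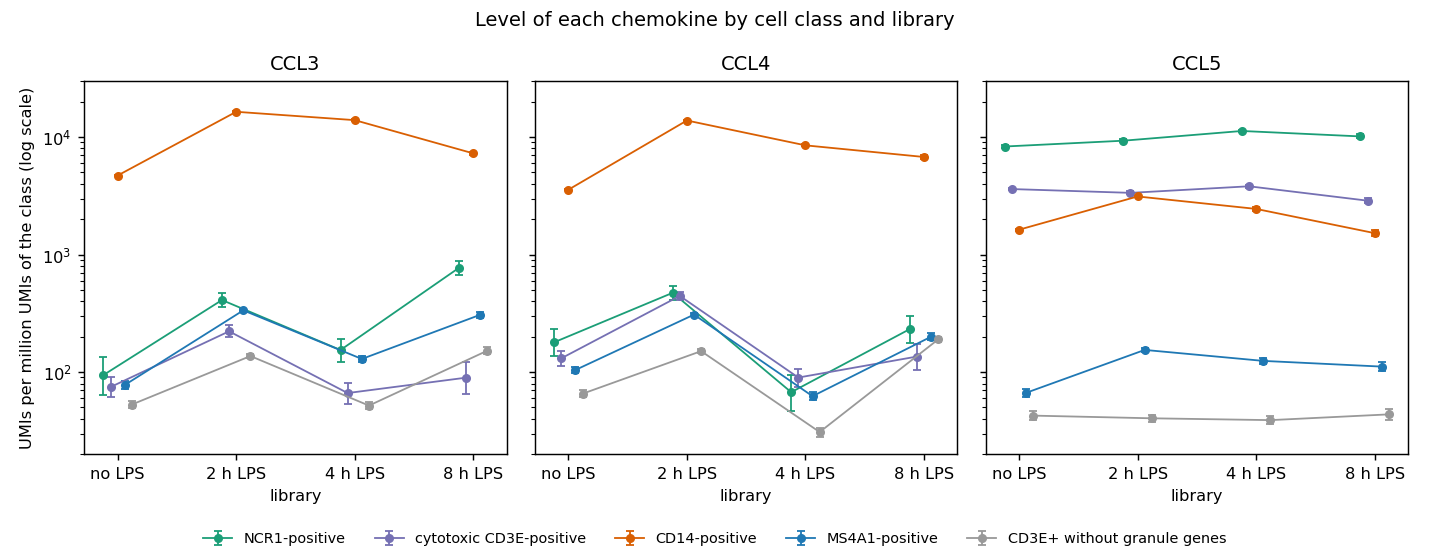
Level of CCL3, CCL4 and CCL5 (UMIs per 1000000 UMIs of the class, log axis) in the 4 RNA libraries, 1 line per cell class, with exact 95% counting intervals as bars. CD14-positive cells lie above the other classes for CCL3 and CCL4 in each library, whereas for CCL5 the NCR1-positive cells lie highest, from 8316 to 11275.

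The CCL3 transcript was not confined to a few CD14-positive cells. Without LPS 92.8% of them had a CCL3 UMI, and the share lay between 93.5% and 98.5% in the libraries with LPS. What differed was the amount per cell. The median CD14-positive cell had 16, 153, 85 and 37 CCL3 UMIs in the order of the libraries, and as CPM per cell the medians were 2562, 13050.2, 10022 and 4747. The lower quartile at 2 h (6661 CPM) stood above the upper quartile without LPS (5417 CPM). For CCL4 the median cell had 10, 116.5, 39 and 10 UMIs, or 1610, 9647, 5549 and 2272 CPM, and the lower quartile at 2 h (4493) likewise stood above the upper quartile without LPS (4086). After each cell was thinned to 1000 UMIs, CCL3 was still seen in 79.9%, 92.3%, 92.5% and 94.7% of CD14-positive cells and CCL4 in 69.8%, 87.7%, 82.1% and 73.7%.

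CCL5 was spread unevenly over the CD14-positive cells. A CCL5 UMI was found in 61.7%, 65.6%, 60.7% and 57.6% of them, the lower quartile was 0 in all 4 libraries, and the medians were 217, 574, 325 and 204 CPM. Since CCL5 and granule genes go together in cytotoxic lymphocytes, the class was split, after its values were seen, by the 8 granule genes used for the gate. The 605, 282, 108 and 53 CD14-positive cells without a UMI of any of them had CCL5 at 1458, 2762, 2414 and 1638 CPM. They were 85.6%, 91.6%, 92.3% and 80.3% of the class, so their closeness to the whole class was largely given beforehand. The 96, 24, 9 and 13 cells with 1 granule gene had 2425, 4969, 2716 and 1111 CPM. Cells with 2 or more were 6 without LPS and 2 at 2 h, with 2011 and 15881 CPM. The granule genes as a whole summed to between 9.69 and 29.6 CPM in CD14-positive cells against 1755 to 2265 in NCR1-positive cells, with GZMA, GZMK and GZMM at 0. CCL5 itself stood at 15.0% to 33.5% of its NCR1-positive level.

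**Figure D2:**
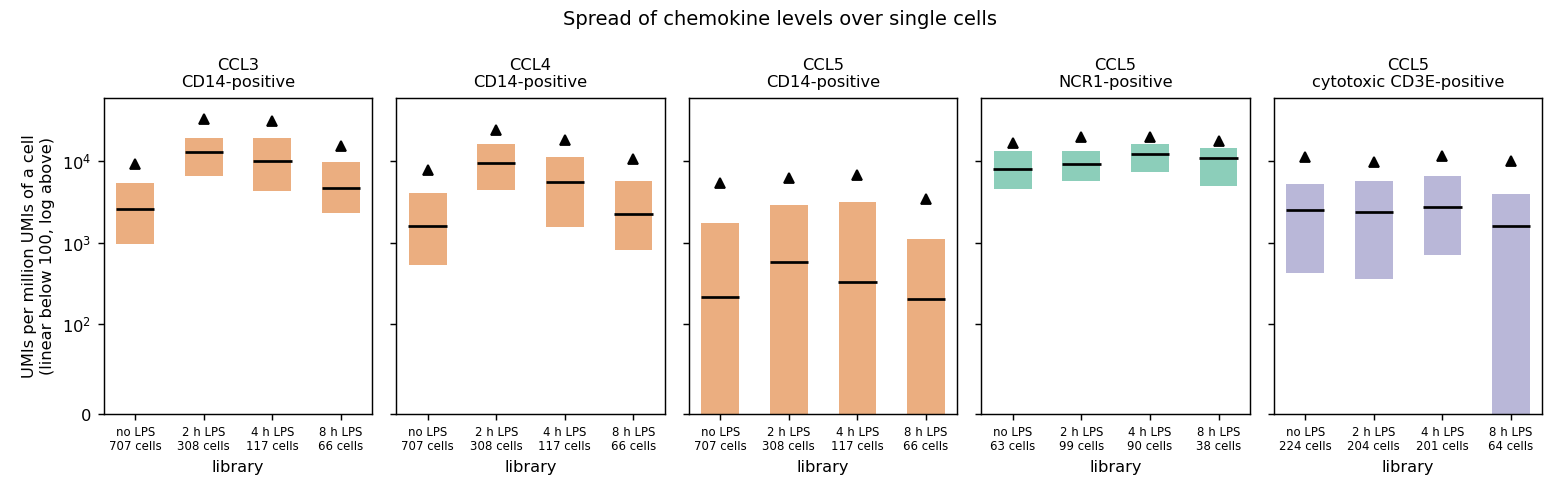
Chemokine level per cell (UMIs per 1000000 UMIs of the cell, linear below 100 and logarithmic above) in 5 pairs of gene and class. Boxes span the lower to the upper quartile, lines mark the median and triangles the 90th percentile. The boxes of CCL3 and CCL4 in CD14-positive cells at 2 h clear those without LPS, while the CCL5 boxes of NCR1-positive cells overlap in all 4 libraries.

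Within the CD14-positive cells, CCL3 and CCL4 went together from cell to cell and CCL5 did not follow them. The Spearman rho of the CCL3 and CCL4 levels per cell was 0.64, 0.67, 0.65 and 0.62 in that order, over 707, 308, 117 and 66 cells. For CCL3 and CCL5 it was 0.04, 0.02, 0.08 and 0.14. These are descriptions over cells of 1 library each, which share that library's preparation.

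In NCR1-positive cells CCL5 stood at 8316 CPM without LPS and at 9319, 11275 and 10134 CPM with 2 h, 4 h and 8 h of LPS. All 4 values lay within a range of 1.36-fold, and the log2 difference from no LPS was 0.16 after 2 h (0.09 to 0.23), 0.44 after 4 h (0.37 to 0.51) and 0.29 after 8 h (0.21 to 0.36). Nearly all of these cells carried the transcript, namely 62 of 63, 96 of 99, 90 of 90 and 36 of 38 cells, and the median cell had between 7942 and 12151 CPM. With at least 2 NCR1 UMIs asked for, only 8 cells without LPS were left, and the levels were 4152, 11145, 11596 and 9921 CPM, past 2-fold higher at each time (1.26 to 1.48).

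Cytotoxic CD3E-positive cells came next, with CCL5 at 3613 CPM without LPS and 3353, 3814 and 2877 CPM with LPS in the order of time. The log2 difference was -0.11 after 2 h (-0.17 to -0.05), 0.08 after 4 h (0.02 to 0.13) and -0.33 after 8 h (-0.42 to -0.24), so that 8 h was the lowest. Between 70.3% and 84.3% of them had a CCL5 UMI. CD3E-positive cells without any granule gene had CCL5 at only 42.6, 40.5, 39.0 and 43.7 CPM, with a UMI in 5.17% to 10.6% of cells, and their counting intervals at 2 h, 4 h and 8 h against no LPS all took in 0. CD3E-positive cells with exactly 1 granule gene, which entered no class (379, 461, 386 and 241 cells), lay between, with CCL5 at 438, 406, 307 and 236 CPM and a UMI in 13.7% to 25.7% of cells. The differences in CCL5 between these groups of T cells were wider than any difference with LPS within them.

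CCL3 and CCL4 were low in the NCR1-positive cells, and their values rested on a few cells. CCL3 was 94.4, 411, 154 and 773 CPM (30, 204, 80 and 203 UMIs), and CCL4 was 179, 473, 67.5 and 232 CPM (57, 235, 35 and 61 UMIs). In each library 1 cell held between 17.5% and 46.8% of the CCL3 UMIs and between 28.6% and 73.7% of the CCL4 UMIs. The log2 difference of CCL3 from no LPS was 2.11 after 2 h (1.56 to 2.72), 0.70 after 4 h (0.09 to 1.36) and 3.02 after 8 h (2.47 to 3.64). That of CCL4 was 1.39 after 2 h (0.98 to 1.84), -1.40 after 4 h (-2.06 to -0.78) and 0.37 after 8 h (-0.17 to 0.92). Without the cell with the most CCL4 UMIs in each library, CCL4 at 4 h was 0.013 from its level without LPS, and it was 1.64 higher when cells with over 3000 genes were kept, so no direction can be given for it. With the same cells kept, CCL3 at 2 h was 0.039 from its level without LPS. Of the 3 chemokines, 2 were past 2-fold at 2 h beside 8.25% of all genes tested in NCR1-positive cells, 1 at 4 h beside 8.55% and 1 at 8 h beside 7.63%.

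Cytotoxic CD3E-positive cells had CCL3 at 74.6 CPM without LPS and at 222, 66.3 and 89.7 CPM with LPS. Their CCL4 was 131, 445, 89.9 and 136 CPM. The log2 difference at 2 h was 1.56 for CCL3 (1.25 to 1.92) and 1.76 for CCL4 (1.52 to 2.01), and it was past 2-fold there in each alternative processing, from 1.16 to 3.12 and from 1.62 to 2.56. These values rested on few cells, since 3 of the 204 held 63.7% of the CCL3 UMIs at 2 h and 44.2% of the CCL4 UMIs. The top cell alone held 37.0% and 26.2%. At 2 h, 15 of the 204 cells had 10 or more CCL4 UMIs, against 3 of 224 without LPS and 0 of 201 at 4 h. Of the 3 chemokines 2 were past 2-fold at 2 h, beside 3.76% of all genes tested, and none at 4 h or 8 h, beside 4.83% and 7.46%. With cells kept that carry another gate gene, CCL3 was 1.91 at 4 h and 1.35 at 8 h and CCL4 1.34 at 4 h, all past 2-fold. NCR1-positive and cytotoxic CD3E-positive cells thus held CCL5 within 2-fold over the libraries, apart from the stricter NCR1 gate above, and CCL3 and CCL4 at a small part of the CD14-positive level.

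B cells are not known as a main source of these chemokines, and the MS4A1-positive cells serve here as a comparison class. Their CCL3 was 77.7, 335, 129 and 308 CPM, their CCL4 104, 309, 62.4 and 200, and their CCL5 66.7, 154, 125 and 111. The top 1% of the cells held between 30.9% and 86.1% of the UMIs of a chemokine. CCL3 in this class amounted to 0.928% to 4.24% of its CD14-positive level and CCL4 to 0.733% to 2.95%, while the monocyte gene CD68 amounted to 1.51% to 2.65% and CTSS, which encodes cathepsin S and which B cells also express, to 9.12% to 12.4%. For cytotoxic CD3E-positive cells these ranges were 0.476% to 1.58% for CCL3, 1.06% to 3.67% for CCL4 and 0.382% to 2.18% for CD68 and 7.14% to 11.5% for CTSS. For NCR1-positive cells CCL3 was 1.11% to 10.6% and CCL4 0.793% to 5.03%, with CD68 from 0 to 1.92%, CTSS from 10.1% to 13.6% and FCGR1A and CD163 at 0. CSF1R and LYZ had UMIs in NCR1-positive cells at 2 h only, 1 and 2 UMIs, which is 3.63% and 1.34% of their CD14-positive level. Cells of these 3 classes were allowed 1 UMI of CD14. The part of free or co-captured monocyte RNA in these low values was not tested further. In MS4A1-positive cells all 3 chemokines were past 2-fold at 2 h, beside 4.28% of all genes, none at 4 h, beside 7.49%, and 1 at 8 h, beside 3.78%. CCL4 at 2 h was 0.69 as a mean over cells, and CCL5 at 2 h and CCL3 at 8 h were 0.70 and 0.40 when cells with another gate gene were kept. Other alternatives gave values past 2-fold where the main ones were not. CCL5 at 4 h was 1.65 with 1 UMI more of the gate gene, 1.24 without the cell with the most CCL5 UMIs and 1.01 with DESeq2 size factors. CCL4 and CCL5 at 8 h were 2.04 and 1.70 as means over cells, and CCL4 at 4 h was -1.13 as a mean over cells and -1.24 without the cell with the most CCL4 UMIs. With edgeR factors, which raise the values of this class by 0.09 at 2 h and 0.11 at 4 h, its genes past 2-fold were 317 higher and 111 lower at 2 h and 324 higher and 355 lower at 4 h, instead of 257 and 168 and of 270 and 469.

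At 8 h the share of MS4A1-positive cells with a CCL3 UMI was 38.8%, against 13.5%, 23.1% and 14.7% in the other libraries, and in the NCR1-positive cells it was 36.8%, so that the latter was not above the B cell share. After thinning to 1000 UMIs, 20.8% of MS4A1-positive and 15.8% of NCR1-positive cells at 8 h had a CCL3 UMI. Without LPS the thinned shares were 4.16% and 12.7% (8 of 63 cells, 5.65% to 23.5%). Median depths at 8 h were 5204 and 6892 UMIs per cell. The 150 MS4A1-positive cells with under 2000 UMIs at 8 h had 2420 CPM of CCL3, 1670 of CCL4 and 571 of CCL5, and the per-cell Spearman rho of CCL3 and CCL4 fell from 0.61 to 0.36 without them.

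**Figure D3:**
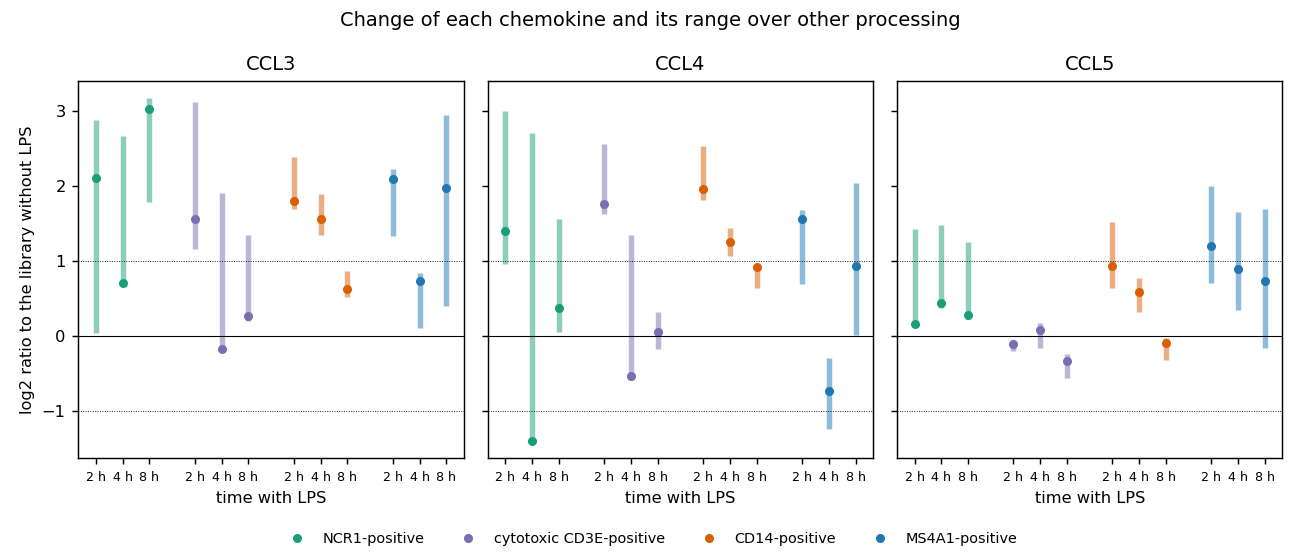
Log2 ratio of each chemokine to the library without LPS in 4 cell classes at 2 h, 4 h and 8 h. Dots are the values reported, bars run from the lowest to the highest value over 8 other ways of processing, and dotted lines mark 2-fold. Bars of CD14-positive cells stay above 1 for CCL3 and CCL4 at 2 h and 4 h, whereas those of NCR1-positive cells for CCL4 at 4 h run from -1.40 to 2.70.

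Summed over all cells, the time course was another one. CCL3 was 1220, 2140, 884 and 929 CPM in the order of the libraries, and CCL4 was 1063, 1870, 604 and 745. Their log2 differences over all cells were -0.46 and -0.81 at 4 h, whereas both were over 1 within CD14-positive cells at the same time. CD14-positive cells made up a smaller share of the cells at 4 h than without LPS, as given above, and a lower level in the whole library and fewer cells of a type cannot be told apart from the library sums. CD14-positive cells held 67.5%, 57.2%, 44.6% and 29.9% of all CCL3 UMIs of the respective library. For CCL4 the shares were 58.6%, 55.2%, 39.8% and 34.7%. CCL5 over all cells was 778, 767, 696 and 570 CPM.

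Cells that entered no class held 29.4%, 35.7%, 48.3% and 53.5% of the CCL3 UMIs. These cells were split after their values were seen. Cells with CD14 and a lymphoid gate gene (202, 123, 69 and 63 cells) had 3867, 15772, 10742 and 4834 CPM of CCL3, near the CD14-positive level, and held 15.9%, 25.1%, 24.0% and 8.96% of the CCL3 UMIs. In the groups that follow, no gate gene means no UMI of NCR1, CD3E or MS4A1 and at most 1 UMI of CD14. They can thus hold cells with 1 CD14 UMI. Cells with neither a gate gene nor CSF3R (1122, 1391, 915 and 620 cells) had 1481, 1665, 1586 and 3259 CPM of CCL3 and held 11.3%, 7.51%, 17.5% and 30.9% of its UMIs, at 8 h about as much as the CD14-positive cells. Cells with no gate gene but a UMI of CSF3R, the granulocyte colony-stimulating factor receptor found on neutrophils, were 61, 124, 100 and 40. Their CCL3 was 301 CPM without LPS (23 UMIs) and 11214, 8975 and 10382 CPM with LPS, the last of them above the CD14-positive level at 8 h. Their CCL4 was 590, 9354, 1594 and 2066 CPM. In these cells CCL4 at 4 h was far below its 2 h value while CCL3 was not. They are not named further, since their median depth was only 1061 to 1693 UMIs.

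**Figure D4:**
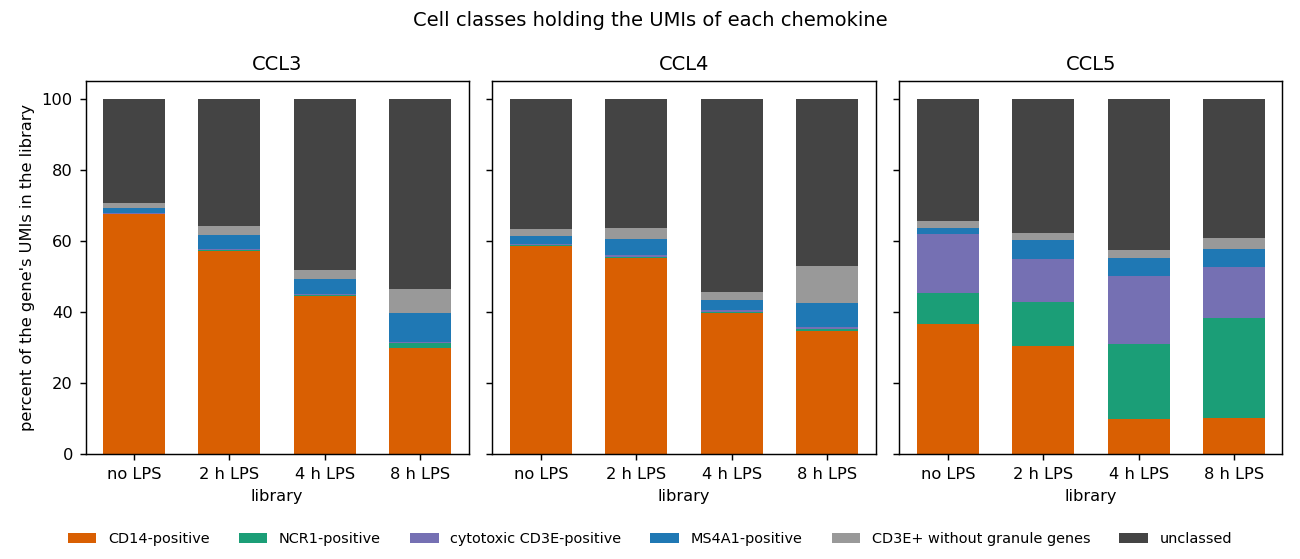
Share of each chemokine's UMIs in a library (percent, stacked) held by each cell class, by library. CD14-positive cells hold 67.5% of the CCL3 UMIs without LPS and 29.9% at 8 h, and unclassed cells hold 53.5% at 8 h, whereas CCL5 UMIs are divided among NCR1-positive, cytotoxic CD3E-positive, CD14-positive and unclassed cells.

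The receptor genes CCR1 and CCRL2 followed different courses in CD14-positive cells. CCR1, a receptor for CCL3 and CCL5, was 282, 117, 333 and 278 CPM, so that it was 1.26 lower on the log2 scale at 2 h (-1.42 to -1.11). The median gene of the class lay at -0.56 there, and with the edgeR factors, which raise values by 0.53, CCR1 would fall short of 2-fold. CCRL2, an atypical receptor, was 22.3, 46.2, 137 and 26.7 CPM, past 2-fold higher at 2 h and 4 h. In NCR1-positive cells neither CCR1 nor CCRL2 reached 50 UMIs.

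Other chemokines of CD14-positive cells did not share one course. Of the 18 other CC, C and CX3C chemokines listed in the tables, 3 reached 50 UMIs there. CCL20, which draws CCR6-bearing lymphocytes, was 230 CPM without LPS and 5211, 1124 and 927 with LPS, 4.49 higher on the log2 scale at 2 h (4.43 to 4.58). CCL2, the main monocyte attractant, was 34682 CPM without LPS and 10446, 7045 and 10465 with LPS, past 2-fold lower at each time. CCL8 was 3215, 2645, 1902 and 624 CPM, past 2-fold lower at 8 h only, and its direction at 2 h turned with edgeR factors. In NCR1-positive cells at 8 h, CCL1 and XCL1 were past 2-fold higher, but all 228 CCL1 UMIs and 41 of the 65 XCL1 UMIs came from 1 cell.

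Among 15 transcriptional and RNA stability regulators, 13 reached 50 UMIs in CD14-positive cells at 2 h, of which 5 were past 2-fold higher, beside 4.20% of all genes, and 3 past 2-fold lower, beside 21.3% of all genes, a share that 3 of 13 is near. The NF-kappa B subunit genes NFKB1 (234 to 621 CPM), REL (38.5 to 122) and RELB (82.6 to 170) and the inhibitor gene NFKBIA (2724 to 5909) were higher at 2 h, as was IRF1, while RELA was -0.53 and lost this direction with edgeR factors. The lower genes were KLF13 (49.3 to 8.13 CPM), a factor known to act on CCL5 in T cells, and ZFP36L1 and ZFP36L2, which bind AU-rich elements of short-lived mRNAs. ZFP36L1 (173 to 62.8 CPM) would fall short of 2-fold with the edgeR factors, which raise values by 0.53. KLF13 in cytotoxic CD3E-positive cells was 454, 424, 415 and 457 CPM, within 0.13 of no LPS on the log2 scale. NFKBIA was past 2-fold higher at 2 h in all 4 classes, by 1.65 in NCR1-positive, 2.05 in cytotoxic CD3E-positive, 1.12 in CD14-positive and 1.65 in MS4A1-positive cells.

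Of 7 cytokine genes, 5 reached 50 UMIs in CD14-positive cells at 2 h and all 5 were past 2-fold higher, beside 4.20% of all genes. Their median was 1.78, where the median gene of the class lay at -0.56. IL6 was 1243, 4834, 1344 and 1029 CPM, back near its level without LPS by 4 h (0.11 on the log2 scale, 0.03 to 0.19), when CCL3 still stood at 1.57. IL1B was 9071, 21706, 16116 and 16471 CPM and IL10 194, 668, 529 and 292. Of the 9 granule genes listed in the tables, 4 reached 50 UMIs in NCR1-positive cells, and none of these was past 2-fold at any time, where 8.25%, 8.55% and 7.63% of all genes were, so that the count is near that share. GNLY, which encodes granulysin, was 844, 1445, 1451 and 1016 CPM there, and PRF1, which encodes perforin, was 375, 409, 412 and 339. In cytotoxic CD3E-positive cells, granule genes with at least 50 UMIs had median log2 differences of -0.13, -0.0048 and -0.39 in order of time. CCL5 lay at -0.11, 0.08 and -0.33 there. GZMB, 1 of the genes of the gate, had a course unlike both, with 176, 360, 581 and 8.35 CPM.

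Over the 16 sums of 4 classes and 4 libraries, the genes most like CCL3 among 8373 genes by Pearson's r of log2 levels were MAPK6 (0.98), TNIP1 (0.97), ACOD1 (0.97), SGMS2 (0.97) and APOBEC3Z1 (0.97). ACOD1, whose enzyme makes itaconate in LPS-treated myeloid cells, was 27.6, 96.1, 96.9 and 59.7 CPM in CD14-positive cells and under 4 CPM elsewhere. TNIP1, which encodes a binding partner of the NF-kappa B regulator A20, was 576, 808, 895 and 762 CPM there. Those most like CCL4 were CXCL3 (0.97), CLDN1 (0.96), ID2 (0.96), CCL20 (0.96) and DLC1 (0.96). CXCL3, a neutrophil attractant, was 7219, 17475, 11115 and 10399 CPM in CD14-positive cells. CCL4 itself ranked 10th for CCL3 (r = 0.96), whereas CCL5 had r = 0.11 with CCL3 and 0.14 with CCL4. The genes most like CCL5 were PGM3 (0.97), ARHGAP31 (0.96), NUPR1 (0.95), OTULINL (0.95) and PLEKHA1 (0.94). The points share 4 libraries and differ in depth, and r over them mostly reflects which class holds a gene.

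The accessibility tables count signal per gene, with 975012 counts in the library without LPS against 30250143, 26837579 and 11957904 with LPS. They held rows for CCL3 and CCL5 in each library, but the Ensembl ID of CCL4 was not listed in any, so CCL4 has no accessibility value here. CCL3 had 12.3 counts per 1000000 counts without LPS (12 counts, 6.36 to 21.5), against 42.6 (40.3 to 45.0), 40.5 (38.1 to 43.0) and 28.4 (25.5 to 31.6) with LPS. CCL5 had 36.9 (36 counts, 25.9 to 51.1), 62.9 (60.1 to 65.8), 59.4 (56.5 to 62.4) and 63.4 (59.0 to 68.1). The library without LPS was far thinner, with a median of 213 counts per barcode, and in the 352 of its 3121 barcodes with at least 500 counts CCL5 stood at 70.6 and CCL3 at 8.83 (3 counts). The counting interval of CCL5 without LPS thus lay below those with LPS over all barcodes, but the value without LPS was above those with LPS in the deeper barcodes, so no direction is given for CCL5. The CCL3 value without LPS rests on 12 counts.

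Nuclei in the libraries with LPS were split by summed counts at T cell, B cell and myeloid marker genes, of which CD3E, CD3D and CD3G and 2 to 5 of 8 myeloid genes were not listed. CCL3 counts per 1000000 counts were 26.8, 22.8 and 11.5 in T-marked nuclei at 2 h, 4 h and 8 h, 42.2, 40.0 and 29.0 in B-marked nuclei, and 256, 413 and 375 in myeloid-marked nuclei. The myeloid-marked nuclei were only 17, 9 and 10, with 30, 26 and 15 CCL3 counts that came from 8, 4 and 6 nuclei. Their counting intervals were 173 to 366, 270 to 605 and 210 to 619, apart from those of the other nuclei. These intervals are too narrow, since counts from the same nucleus are not independent, and do not make up for the few nuclei. CCL5 was 56.8, 57.7 and 64.3 in T-marked and 61.8, 52.2 and 45.1 in B-marked nuclei. T-marked nuclei were not split by granule genes, so they cannot be set against the CCL5 RNA of cytotoxic CD3E-positive cells alone. In the RNA at 2 h, 204 CD3E-positive cells were cytotoxic and 4338 had no granule gene, with CCL5 at 3353 and 40.5 CPM. In myeloid-marked nuclei CCL5 was 103, 222 and 100, so these lay highest for CCL5 as well as for CCL3. These CCL5 values rested on 12, 14 and 4 counts, from 5, 4 and 1 nuclei. Their counting intervals were 53.0 to 179, 122 to 373 and 27.3 to 256. Only the 4 h interval was apart from those of the T-marked and B-marked nuclei.

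**Figure D5:**
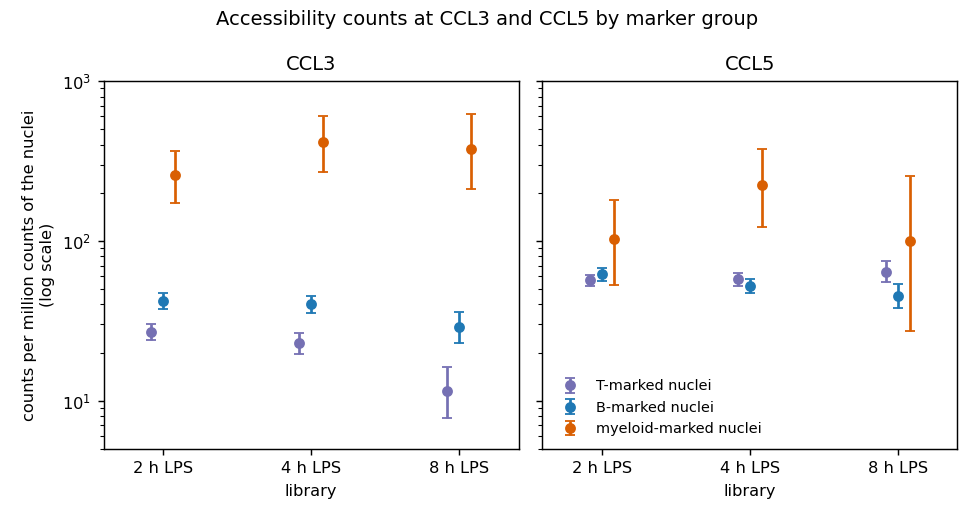
Accessibility counts per 1000000 counts (log axis) at CCL3 and CCL5 in T-marked, B-marked and myeloid-marked nuclei of the 3 libraries with LPS, with exact 95% counting intervals. Myeloid-marked nuclei lie highest at each time for CCL3, from 256 to 413, and for CCL5, from 100 to 222. For CCL5 their intervals overlap the others at 2 h and 8 h.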

How the data were processed

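Whole blood of 4 cows was pooled, so each group is 1 library. Per the paper's methods and labels, reads were processed with Cell Ranger 3.1.0 on ARS-UCD1.2, and the authors deposited gene by barcode tables. All deposited values are counts. The RNA tables hold UMI counts of all barcodes, and the accessibility tables hold counts per gene whose rule is not given in the sources used here (88.7% to 93.8% of the values above 0 are even). CCL3, CCL4 and CCL5, the gene lists and the classes were chosen with earlier results of these data known.

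Class sums of UMIs were divided by the class total (CPM), with 1 CPM added before log2. Intervals are exact Poisson, or exact binomial (Clopper-Pearson) for shares and conditional binomial for ratios, at 95%, and cover counting error only. They are too narrow where a few cells hold many UMIs. A gene is called past 2-fold at a log2 difference of at least 1, given at least 20 UMIs in the pair of libraries. Named genes are the 3 chemokines, list genes with at least 50 UMIs, the 5 genes most like each chemokine (at least 200 UMIs) and class markers. The 2 GZMB rows were summed. GZMH, PF4, PPBP and XCL2 had no row. No doublet caller was run. Cells with gate genes of several classes were left unclassed, except that 1 CD14 UMI was allowed in the NCR1-positive, CD3E-positive and MS4A1-positive classes. Nuclei were put in a marker group with at least 4 counts of that list and at least 2 times those of each other list. Ratios were also run on simulated class sums with counting error alone. Those sums had no spread between cells, so the run says nothing about values held by a few cells. The 8 alternatives used edgeR 4.0.16 factors, DESeq2 1.42.0 size factors and other cell limits. The edgeR and DESeq2 tools gave scaling only. Python 3.11.15 with scipy 1.17.1 was used. A search of promoters was not made, since no sequence of the build was used here. Results for some listed genes are not reported here.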

Additional observations from a re-analysis of the deposited data

Results flagged for a closer look

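A member was picked out here where, at the same time with LPS, its counting interval lay above 0 in 1 cell class and below 0 in another. Each class has 1 library per treatment, so these differences between classes were not tested.

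CCL4 at 4 h was 1.25 higher on the log2 scale than without LPS in CD14-positive cells, against -1.40 in NCR1-positive, -0.54 in cytotoxic CD3E-positive and -0.73 in MS4A1-positive cells. The NCR1-positive value was 2.70 and the cytotoxic CD3E-positive value 1.34 when cells with another gate gene were kept. CCL4 over all cells also was lower (-0.81), while the CD14-positive share of cells went from 9.04% to 1.58%, and its part in the values of the other classes was not tested.

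CCL5 at 2 h was 0.16 in NCR1-positive, -0.11 in cytotoxic CD3E-positive, 0.94 in CD14-positive and 1.2 in MS4A1-positive cells. CCL5 at 8 h was 0.29, -0.33, -0.10 and 0.73 in the same classes. In MS4A1-positive cells these values rest on 544 UMIs without LPS, of which 1 cell held 27.0%.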

How the results depend on the processing

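CCL3 and CCL4 in CD14-positive cells were past 2-fold at 2 h and 4 h and short of it at 8 h under each of the 8 alternatives. CD14-positive CCL5 at 2 h ranged from 0.63 to 1.52 and was past 2-fold only with the edgeR and DESeq2 factors. Among the values that left the counting interval were the following, as log2 ratios to no LPS.

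With no upper limit on genes, CD14-positive CCL3 was 1.70, 1.35 and 0.75 (2 h, 4 h and 8 h) and CCL4 1.82 and 1.06 (2 h and 4 h). NCR1-positive CCL3 was then 0.039 at 2 h and 1.78 at 8 h, CCL4 0.96 at 2 h and 1.64 at 4 h, and CCL5 0.52 at 4 h and 0.45 at 8 h. Cytotoxic CD3E-positive CCL5 was -0.20, -0.16 and -0.56.

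With 1 UMI more of the gate gene, CD14-positive CCL4 was 2.00 at 2 h and 1.31 at 4 h, and NCR1-positive CCL5 was 1.42, 1.48 and 1.26. NCR1-positive CCL3 and CCL4 then had 3 or fewer UMIs without LPS, and no ratio was made.

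With cells kept that carry another gate gene, CD14-positive CCL3 was 1.84, 1.48 and 0.53 and CCL4 1.99, 1.30 and 0.71. NCR1-positive CCL3 was 2.88, 2.67 and 2.22, CCL4 3.0 at 2 h and 2.70 at 4 h, and CCL5 0.54 at 4 h and 0.67 at 8 h. Cytotoxic CD3E-positive CCL5 was 0.18 at 4 h and -0.24 at 8 h.

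As a mean over cells, CD14-positive CCL3 was 1.95, 1.89 and 0.87, CCL4 1.86, 1.16 and 0.77, and cytotoxic CD3E-positive CCL5 0.14 at 4 h and -0.24 at 8 h. Without the cell with the most UMIs of the gene in each library, an alternative chosen after seeing the data, NCR1-positive CCL4 was 2.485, 0.013 and 1.56, CD14-positive CCL4 0.64 at 8 h and cytotoxic CD3E-positive CCL5 -0.44 at 8 h. With edgeR factors, CD14-positive CCL3 was 2.33 and 1.76 and CCL4 2.49 and 1.44 at 2 h and 4 h, and with DESeq2 size factors 2.38 and 1.75, and 2.54 and 1.44. The cause of these shifts was not tested. With at least 2000 UMIs per cell, 33 of 36 ratios stayed in their interval and all kept their sign.

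Without a minimum of UMIs, the genes past 2-fold numbered 449 to 3673 over the 12 comparisons, instead of 239 to 1979. Barcodes with at least 500 counts gave CCL5 70.6 counts per 1000000 without LPS, and halved counts gave CCL3 43.0 at 4 h. No paired analysis was possible because each treatment has 1 library. The NCR1-positive class of 38 to 99 cells and the CD14-positive class of 66 cells at 8 h limit what can be read from them.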
